A study of Mus musculus with 21 samples.

Results

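Estradiol peaks of estrogen receptor alpha (ERα) that white fat and liver had in common were taken from the visceral white adipose list (labelled vWAT) of a mouse chromatin immunoprecipitation and sequencing (ChIP-seq) study. A peak of the vWAT estradiol list was a member when it overlapped, by at least 1 bp, a peak of subcutaneous white fat (scWAT) and a peak of Liver, both with estradiol, and overlapped no peak of brown fat (BAT) with estradiol and no peak of vWAT with vehicle. Of the 20715 vWAT estradiol peaks on chromosomes 1 to 19 and X, 743 met this rule (3.59%). All tissues were from CD-1 mice, an outbred strain, aged 10 weeks and given estradiol or vehicle; dose, route, time and sex are not given in the labels. Each of the 5 groups had 1 peak list, and the labels name it for 4 estradiol and 2 vehicle ERα libraries of vWAT and, after estradiol, for 3 libraries of scWAT, 2 of Liver and 1 of BAT. How these libraries entered a list is not stated. No difference could therefore be tested over animals. Intervals are 95% Wilson intervals and cover counting error over peaks only.

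ERα is a ligand-activated transcription factor. With estradiol bound, it dimerises and sits on estrogen response elements, palindromes of 2 short arms around a spacer, or is held on DNA by other factors. In fat and in liver it takes part in the control of lipid storage, lipid oxidation and glucose metabolism in females and males. Adipocytes and hepatocytes are the main cells of these tissues, and whole tissue also holds vessels, immune cells and stroma.

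The members were chosen by the presence or absence of a listed peak in each of the 5 groups, so their enrichment values are given as a description and were not tested. Of the vWAT estradiol peaks, 48.4% overlapped a scWAT peak, 22.8% a Liver peak, 11.1% a BAT peak and 22.7% a vehicle peak, and 3666 overlapped both scWAT and Liver. Of those 3666, 2798 also had a vehicle peak and 1558 a BAT peak, which left the 743 members (20.3%). The smallest overlaps inside the rule were 1 bp with scWAT for a peak at Dusp23 (vWAT enrichment 3.85), 2 bp with Liver for a peak near Itpkb (3.91) and 8 bp with Liver for one near Srek1 (4.29). Just outside it, peaks near Trim12c (4.52), Polm (3.51) and Pheta1 (4.49) missed a Liver peak by 6, 9 and 10 bp. Some members were neighbours under a single partner peak, since the 743 members met 739 distinct scWAT peaks and 738 distinct Liver peaks.

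The sequence under these peaks is shown for 6 gene starts, because many of the members lay at starts and these windows differ in whether they hold an arm of the estrogen response element. The sequences are RefSeq promoter windows on GRCm38.p6, the assembly of mm10, running from 250 bases before to 50 bases after an annotated start, 5′ to 3′ on the strand of the gene. Capitals mark each GGTCA or its complement TGACC. The windows of Dhcr7 (chr7:143822917-143823216, plus strand), which encodes the last enzyme of cholesterol synthesis, and Nupl1 (chr14:60251430-60251729, minus strand), a nuclear pore gene, belong to the 2 gene-start members that ranked highest in all 3 lists together.
Dhcr7: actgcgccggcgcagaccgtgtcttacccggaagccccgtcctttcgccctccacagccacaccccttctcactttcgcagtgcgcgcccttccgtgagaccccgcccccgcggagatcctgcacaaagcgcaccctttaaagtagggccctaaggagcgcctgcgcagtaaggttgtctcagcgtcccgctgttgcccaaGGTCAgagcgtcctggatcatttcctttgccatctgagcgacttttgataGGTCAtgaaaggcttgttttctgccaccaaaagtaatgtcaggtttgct
Nupl1: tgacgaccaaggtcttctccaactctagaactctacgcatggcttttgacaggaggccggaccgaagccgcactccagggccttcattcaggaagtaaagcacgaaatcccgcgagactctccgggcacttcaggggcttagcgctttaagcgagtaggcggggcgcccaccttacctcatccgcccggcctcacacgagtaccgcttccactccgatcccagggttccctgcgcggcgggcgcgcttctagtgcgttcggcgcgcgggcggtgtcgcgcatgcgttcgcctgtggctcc
The windows of Pck1 (chr2:173152823-173153122, plus strand), which encodes the cytosolic enzyme that commits carbon to glucose and glycerol synthesis, Acadm (chr3:153944594-153944893, minus strand), the medium-chain acyl-CoA dehydrogenase of fat oxidation, and Ddit4 (chr10:59951721-59952020, minus strand), a stress-induced inhibitor of mTORC1, come from the gene lists.
Pck1: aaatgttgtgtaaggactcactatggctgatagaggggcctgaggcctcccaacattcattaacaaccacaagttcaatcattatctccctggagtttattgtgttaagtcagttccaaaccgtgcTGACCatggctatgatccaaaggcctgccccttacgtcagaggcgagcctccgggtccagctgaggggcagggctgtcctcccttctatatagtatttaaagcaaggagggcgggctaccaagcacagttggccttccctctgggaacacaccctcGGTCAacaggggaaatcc
Acadm: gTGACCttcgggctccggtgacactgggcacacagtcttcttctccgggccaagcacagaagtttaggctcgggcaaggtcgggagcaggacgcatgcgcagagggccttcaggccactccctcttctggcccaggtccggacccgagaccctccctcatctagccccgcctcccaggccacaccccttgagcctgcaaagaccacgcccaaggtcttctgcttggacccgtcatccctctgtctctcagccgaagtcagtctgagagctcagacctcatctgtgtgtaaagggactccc
Ddit4: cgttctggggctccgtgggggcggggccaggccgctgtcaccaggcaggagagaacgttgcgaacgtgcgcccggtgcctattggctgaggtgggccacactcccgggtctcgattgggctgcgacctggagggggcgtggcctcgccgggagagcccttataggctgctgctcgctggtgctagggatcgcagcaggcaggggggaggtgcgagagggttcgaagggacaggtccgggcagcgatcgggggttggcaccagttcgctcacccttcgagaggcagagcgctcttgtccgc
The last window is that of Strbp (chr2:37703810-37704109, minus strand), an RNA-binding protein gene with the strongest Liver peak of all members.
Strbp: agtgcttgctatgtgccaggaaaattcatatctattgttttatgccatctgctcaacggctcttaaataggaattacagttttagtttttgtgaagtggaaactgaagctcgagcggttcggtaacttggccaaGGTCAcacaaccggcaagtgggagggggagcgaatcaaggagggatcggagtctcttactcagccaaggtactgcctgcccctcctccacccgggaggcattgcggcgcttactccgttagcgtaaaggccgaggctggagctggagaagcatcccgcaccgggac
The Dhcr7 window held 2 such arms, at 49 bases before and 1 base after the start, both inside the peak. Pck1 held 2, of which the one 124 bases before the start lay inside the peak and the one 32 bases after it did not. Acadm held 1 inside its peak, 249 bases before the start. The arm in Strbp, 116 bases before the start, was not wholly inside the peak, and Nupl1 and Ddit4 held none.

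Gene starts and other gene ends made up a large portion of the members. The summits of 315 members lay no more than 1 kb from the start or the far end of a coding gene, which is 42.4% (38.9 to 46.0) of them. Peaks of white fat only, present in vWAT and scWAT with estradiol and absent from the other 3 lists, were at gene ends in 9.49% of cases (8.71 to 10.3, 478 of 5036). The difference was 32.9 percentage points (29.3 to 36.6). Peaks of vWAT and Liver that scWAT, BAT and vehicle lacked were at gene ends in 37.8% (34.2 to 41.5, 256 of 677), which differed from the members by 4.58 points with an interval from -0.524 to 9.64. The members stood far below the 1365 peaks that had the same 3 tissues and a vehicle peak (75.8%) and the 1433 peaks present in all 5 lists (81.4%, 79.3 to 83.3). Over the whole vWAT estradiol list the share was 24.0%. With every list reduced to its top 5193 peaks, the members at gene ends were 7 of 42 (16.7%, 8.32 to 30.6) and white fat only peaks 74 of 1483 (4.99%, 3.99 to 6.22), and with the vehicle list disregarded the members' share was 64.0%.

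The remaining members were spread inside and between genes. Of the 743, 193 (26.0%, 23.0 to 29.2) lay inside a gene over 1 kb from its ends, 194 (26.1%) outside genes but within 100 kb of one, and 41 (5.52%, 4.09 to 7.40) farther than 100 kb from any protein-coding gene. White fat only peaks were inside genes in 45.0% (43.6 to 46.4) and far from genes in 12.6% (11.8 to 13.6). The members were thus less often inside genes than white fat only peaks, where the interval of the difference ran from -22.3 to -15.5 points. They were so more often than peaks of all 5 lists, by 16.0 points (12.5 to 19.6). Peaks of vWAT and Liver without scWAT were inside genes in 33.2% (29.8 to 36.9). The members differed from that class by -7.26 points (-12.0 to -2.51).

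**Figure D1:**
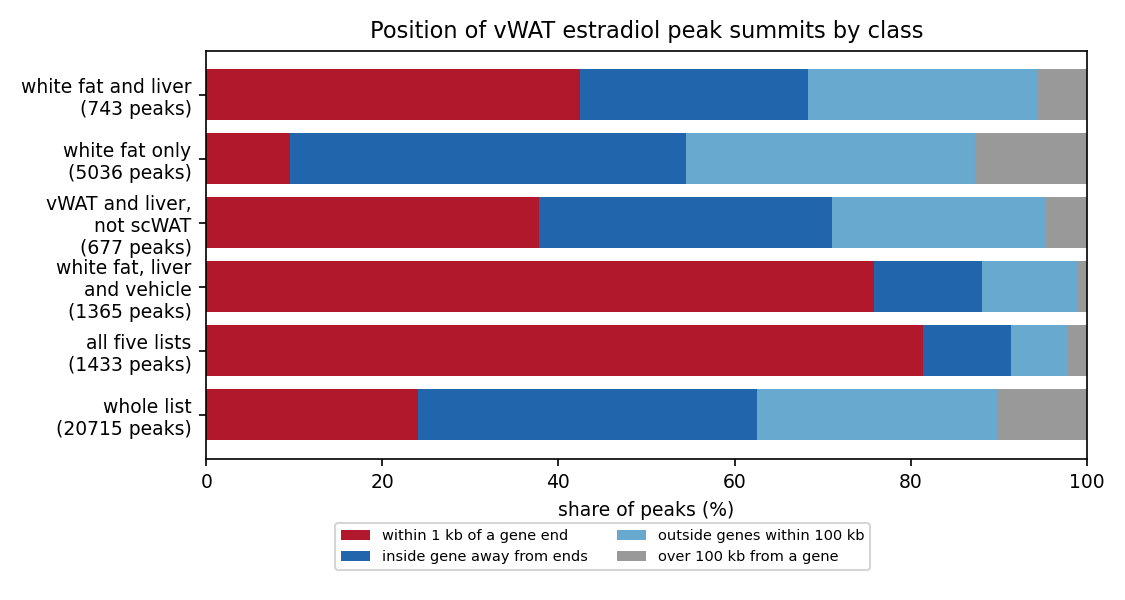
Share of peak summits (%, x axis) by position relative to protein-coding genes for 6 classes of vWAT estradiol peaks, with the number of peaks beside each bar. The members (first bar) have 42.4% of summits within 1 kb of a gene end, between the 9.49% of white fat only peaks and the 81.4% of peaks in all 5 lists.

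The share at gene ends moved with enrichment in vWAT. The vWAT list was cut into 4 equal rank groups, from 1 (strongest) to 4 (weakest). In group 1, 32 of 164 members (19.5%, 14.2 to 26.2) were at gene ends, and the shares in groups 2 to 4 were 39.5%, 55.9% and 52.3%. White fat only peaks rose from 4.26% in group 1 to 8.66%, 12.1% and 19.7%, below the members in each. Peaks of all 5 lists had 82.7%, 78.4% and 80.0% in groups 1 to 3, and 51.4% (35.6 to 67.01) in group 4, where they numbered only 35. Peaks of vWAT and Liver without scWAT had 12% in group 1 (4.17 to 29.96, 3 of 25). In groups 2 to 4 they had 38.5%, 35.95% and 41.7%. Their shares were thus also above those of white fat only peaks in each group, with overlapping intervals in group 1. The intervals of the members and of this class were apart only in group 3 (48.9 to 62.7 against 30.2 to 42.2). All classes were set by presence in the lists, and the part of enrichment in that presence was not tested. Among whole lists the share was 25.2% in Liver, 29.7% in scWAT, 34.4% in BAT and 52.0% in vehicle vWAT.

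A portion of the members lay near a gene start. The RefSeq table holds starts for 17274 of 21631 protein-coding genes and none was used for chromosome 18, so 718 members could be placed. Of these, 270 (37.6%, 34.1 to 41.2) lay within 1 kb of a start, some of them at alternative starts inside a gene span. The share was 7.92% (7.20 to 8.71) for white fat only peaks and 75.6% (73.3 to 77.8) for peaks of all 5 lists. For peaks of vWAT and Liver without scWAT it was 35.1% (31.5 to 38.8), close to the members. The median summit of the 270 lay at -104 bp from the start (upstream), with quartiles at -300 and 75 bp, and 61.1% lay within 250 bp of it. Peaks of all 5 lists were tighter, with 86.1% within 250 bp, and white fat only peaks looser, with 38.0%. Peaks of vWAT and Liver without scWAT had 57.6%. Starts of 2 genes on opposite strands lay within 1 kb of 29 of the 270 members (10.7%, 7.58 to 15.0), against 4.91% (3.17 to 7.54) of white fat only and 18.98% (16.7 to 21.5) of all-list gene-start peaks. In the class of vWAT and Liver without scWAT it was 12.2% (8.60 to 17.1).

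**Figure D2:**
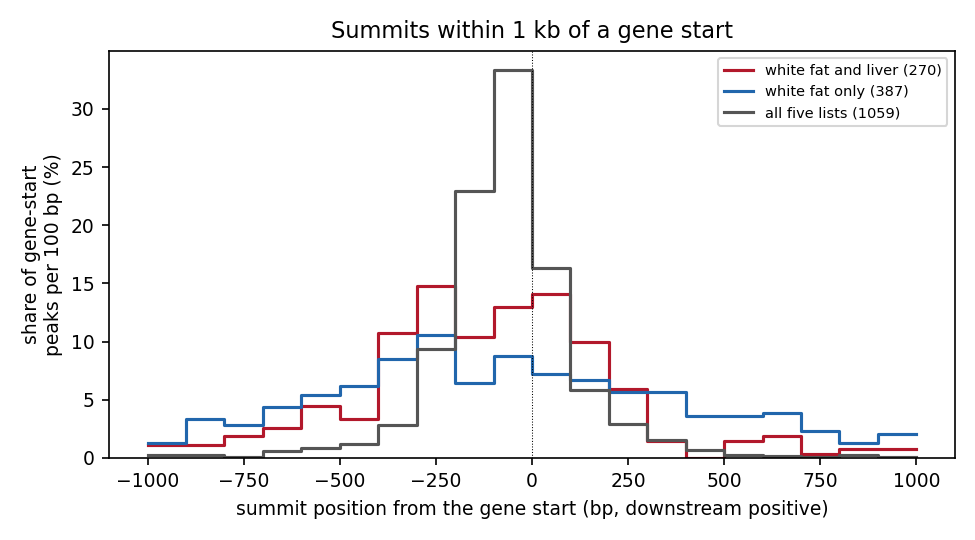
Share of gene-start peaks in each 100 bp bin (%, y axis) by the distance of the summit from the gene start (bp, x axis, downstream positive), for members, white fat only peaks and peaks of all 5 lists. The summits of the 270 members form a broad hump around the start, and 61.1% of them lie within 250 bp, against 86.1% for all 5 lists.

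Members strong in one white fat depot tended to be strong in the other, while their order in liver bore almost no relation to that in fat. Enrichment is the authors' ratio for each peak and was read only within a list, as the value or as the rank from the strongest peak. Across the 743 members Spearman's rho was 0.53 between vWAT and scWAT, -0.02 between vWAT and Liver and 0.04 between scWAT and Liver, where all points share the selection that each had to be a listed peak. Between vWAT and scWAT it was 0.33 over the 270 gene-start members and 0.60 over the 402 members away from gene ends, so the pooled value mixes groups with different ranks. The median enrichment was 4.89 in vWAT (range 2.65 to 19.04), 3.48 in scWAT (2.15 to 18.5) and 4.42 in Liver (2.42 to 16.5). In vWAT this median is close to that of the whole list (4.84), and so it is in scWAT (3.43), whereas the Liver median is above that of the whole Liver list (3.91). The authors' −log10 q-value reached 2 for 92.1% of members in vWAT, 92.9% in scWAT and 67.6% in Liver. Over the whole lists it did so for 89.9% of vWAT, 88.0% of scWAT and 46.4% of Liver peaks, so the 2 fat shares are close to those of their lists.

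By median rank, members at gene starts stood below members away from gene ends in both fat lists and above them in Liver. At the 270 gene starts the median rank was 62.1% from the top in vWAT and 60.6% in scWAT, in the weaker part of both lists, and 28.9% in Liver. The 402 members away from gene ends are those over 1 kb from the ends of a gene span and also from every RefSeq start, alternative starts inside genes included, and their median rank was 39.7% in vWAT, 40.7% in scWAT and 37.7% in Liver. Rank group 1 of the vWAT list held 27 of 270 gene-start members (10.0%) and 128 of 402 members away from ends (31.8%). The same group of the Liver list held 112 of 270 (41.5%) and 114 of 402 (28.4%). These counts describe peaks chosen for being in the lists, and no test was made of them.

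**Figure D3:**
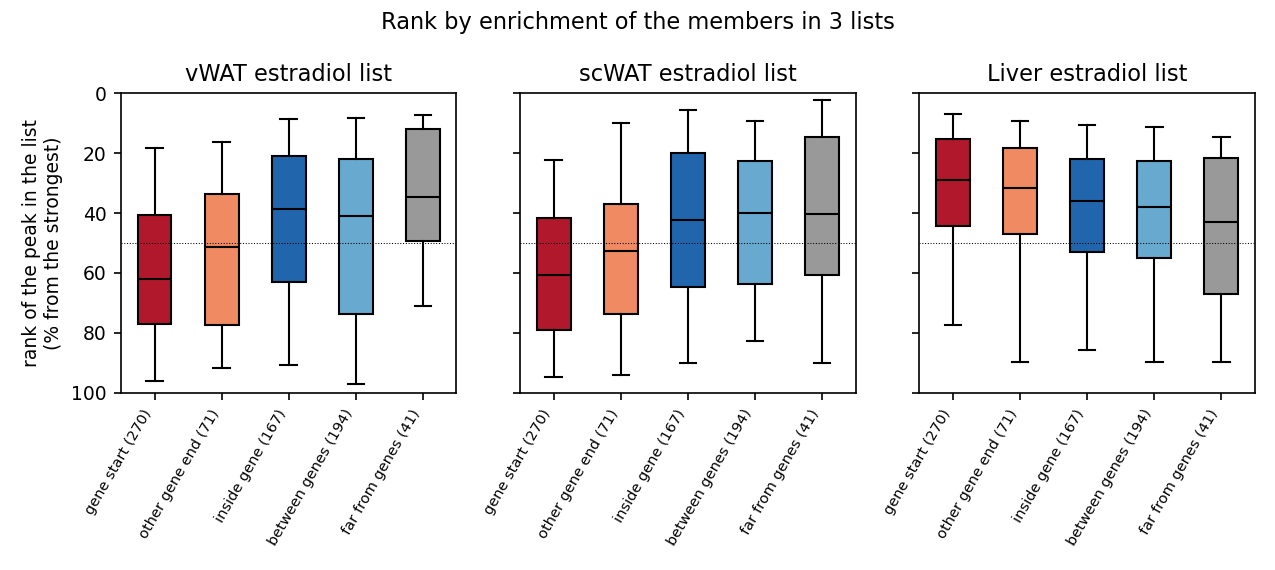
Rank by enrichment (% from the strongest peak, y axis, strongest at the top) of the members in the vWAT, scWAT and Liver estradiol lists, by position (number of members in brackets). Boxes give quartiles with the median line, whiskers the 5th and 95th percentiles, and the dotted line the middle of the list. Gene-start members have a median rank of 62.1% in vWAT and 28.9% in Liver.

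The strongest members in white fat lay away from gene starts. The first, at chr11:79842915-79843641 (mm10), had an enrichment of 19.04 in vWAT, 18.5 in scWAT and 4.73 in Liver, with no protein-coding gene within 50 kb. It was among the top 0.343% of the vWAT list and the top 0.111% of the scWAT list, but at 27.5% in Liver. The second, chr8:124618126-124618776 at an end of Capn9, a calpain protease gene, had 17.6, 12.7 and 4.04. A peak inside Ice1 (chr13:70590127-70590904), a subunit of the complex that transcribes small nuclear RNA genes, had 14.9, 12.05 and 3.77. A peak inside Znhit6 (chr3:145591705-145592306), a factor of small nucleolar RNA assembly, had 14.6 in vWAT, 9.35 in scWAT and 3.23 in Liver. Its Liver value is in the weakest portion of that list (89.6% from the top), with a −log10 q-value of 1.18.

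Other strong members lay near or inside genes of varied function. A peak 24.3 kb from Wdr5 (chr2:27560637-27561107), a subunit of histone H3K4 methyltransferase complexes, had 14.2 in vWAT, 7.08 in scWAT and 6.27 in Liver. A peak inside Dpp6 (chr5:27651949-27652540), an accessory subunit of potassium channels, had 14.1, 11.6 and 4.94. A peak 19.6 kb from Mup22 had 12.8, 6.01 and 4.15. The major urinary protein genes around Mup22 are near-identical copies, so reads there may come from other copies, and that value is uncertain. A peak at chr3:18298480-18299309 with no gene within 50 kb had 14.5, 11.6 and 4.84.

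**Figure D4:**
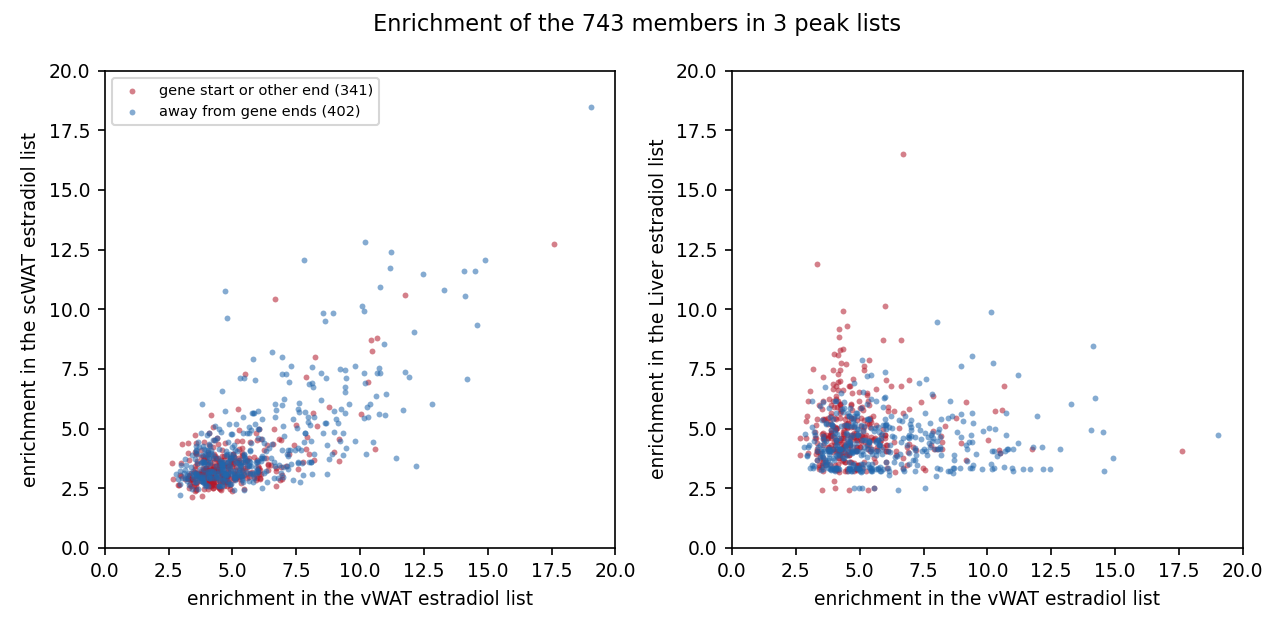
Enrichment of each of the 743 members in the scWAT (left) or Liver (right) estradiol list (y axis) against that in the vWAT estradiol list (x axis), as authors' ratios, with gene-end members in red and the others in blue. The vWAT and scWAT values rise together (rho 0.53), whereas the Liver values do not follow vWAT (rho -0.02).

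Few members were strong in all 3 tissues. Ranked by the worst of its 3 ranks, the best member lay inside Traf3ip2 (chr10:39624862-39625556), which encodes an adaptor of interleukin 17 signalling. Its enrichment was 14.1 in vWAT, 10.6 in scWAT and 8.45 in Liver, within the top 5.45% of each list. The next, chr13:52057358-52057784, lay over 100 kb from any gene, with 11.2, 11.7 and 7.24. The third was the Dhcr7 start (chr7:143822839-143823549), whose window is printed above, with 10.6 in vWAT, 8.78 in scWAT and 6.77 in Liver. The divergent gene Nadsyn1, which encodes the last enzyme of NAD synthesis from nicotinic acid, shares this peak. A peak 29.5 kb from Shld1 (chr2:132657171-132657756), a DNA repair gene, had 10.2, 9.92 and 9.90 and ranked within the top 9.56% of each list. Peaks near Rassf6 (10.2, 6.92 and 7.76), inside Dhx32, a helicase gene (13.3, 10.8 and 6.03), and inside Myo18a, an unconventional myosin gene (8.95, 9.85 and 7.63), were also among the 10 best, along with the Nupl1 start (10.3, 6.96 and 5.75).

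The members with the largest Liver enrichment were gene starts in 4 of 5 cases. The Strbp start (chr2:37703624-37703974) had 16.5 in Liver, 10.4 in scWAT and 6.68 in vWAT. The peak shared by Strn3, a phosphatase scaffold gene, and Ap4s1, an adaptor complex subunit gene (chr12:51692140-51692752), had 11.9 in Liver but 3.31 in vWAT and 2.50 in scWAT, where it ranked at 96.2% and 97.0% from the top. The starts of Pgm2l1, which makes a sugar bisphosphate cofactor, and of the divergent pair Larp7, a 7SK RNA-binding protein gene, and Zgrf1 had 10.1 and 9.91 in Liver, in the top 3.71% and 3.93%. In vWAT they had 5.98 and 4.34 and ranked at 31.6% and 65.6%. In the scWAT list the strongest members after the chromosome 11 and Capn9 peaks were 14.2 kb from Baiap2l1 (12.8 in scWAT, 10.2 in vWAT, 4.06 in Liver) and 2 peaks over 100 kb from genes, on chromosome 13 (12.4 in scWAT) and chromosome 10 (12.1).

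The vWAT summits of the members lay closer to the scWAT summits than to the Liver summits. Summits of scWAT and Liver were not compared with each other. The median distance from the vWAT summit was 78 bp to the scWAT summit and 122 bp to the Liver summit. Of the members, 435 (58.5%) had the scWAT summit and 300 (40.4%) the Liver summit within 100 bp. For peaks of all 5 lists the medians were 35 and 47 bp. For the 1365 peaks of white fat, Liver and vehicle they were 72 and 82 bp, less far apart than in the members. The median peak width was 407 bp in the scWAT list and 298 bp in the Liver list, and its part in these distances was not tested. Away from gene ends the members' median was 70.5 bp for scWAT and 121 bp for Liver, and at gene starts 100 and 123 bp.

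Promoter windows that members overlapped were searched for the estrogen response element and other motifs. Of the 743 members, 224 (30.1%, 26.96 to 33.5) overlapped at least 1 window of a protein-coding gene, 266 windows of 244 genes in all. Both strands were searched for exact matches. The palindrome, GGTCA and TGACC with 3 bases of any kind between them, was in 0 of 266 windows, which allows a share of up to 1.13% as the limit of 3 counts in 266. It was also in 0 of 217 windows of vWAT and Liver peaks without scWAT and in 0 of 1354 windows of all-list peaks, in 2 of 246 windows of white fat only peaks and in 11 of 21045 windows of all genes (0.0523%). At so low a background share, 0 of 266 does not set the members apart. With 1 mismatch it was in 3 of the 266 (1.13%, 0.384 to 3.26), in 11 of 246 white fat only windows (4.47%, 2.51 to 7.83) and in 0.836% of all. Only the match in the Rbm42 window lay inside its peak. It starts 147 bases before the start of Rbm42, an RNA-binding protein gene, and the capitals mark the bases that match the palindrome.
Rbm42: GGTCAaagTGACg
Counting from 1 at the 5′ end, the site differs from the palindrome by C13G. The Rbm42 peak (chr7:30650143-30650488) had 5.18 in vWAT, 3.08 in scWAT and 7.60 in Liver.

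Single arms and motifs of general promoter factors were common in the same windows. GGTCA, which also stands inside each full palindrome, was in 129 of 266 (48.5%, 42.6 to 54.5), in 45.1% (39.0 to 51.4) of white fat only windows, in 36.8% (34.3 to 39.4) of windows of all-list peaks and in 39.5% of all windows. In 93 of the 266 an arm lay wholly inside the peak. CCGGAAG, a core of ETS factor sites, was in 30.5% (25.2 to 36.2) of member windows, in 20.3% (15.8 to 25.8) of white fat only windows, in 30.4% of all-list windows and in 11.7% of all windows. GGGCGG, the GC box of SP1, was in 64.7%, 61.4%, 53.8% and 46.7% of these 4 sets. In windows of vWAT and Liver peaks without scWAT, GGTCA was in 49.8% (43.2 to 56.4), CCGGAAG in 26.7% (21.3 to 33.0) and GGGCGG in 59.0%. TGACGTCA, the cyclic AMP response element, was in 6.39% (4.03 to 10.0) of member windows, 7.32% of white fat only windows, 5.99% of vWAT and Liver windows without scWAT, 2.66% of all-list windows and 2.26% of all windows. CCAAT was in 38.7% of member windows and 38.5% of all windows, with 39.4% for white fat only and 45.3% for all-list windows. The windows also differ in composition. The median ratio of observed to expected CpG was 0.802 in member windows, 0.719 in white fat only windows, 0.808 in all-list windows and 0.574 over all windows, and its part in the motif shares was not tested.

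**Figure D5:**
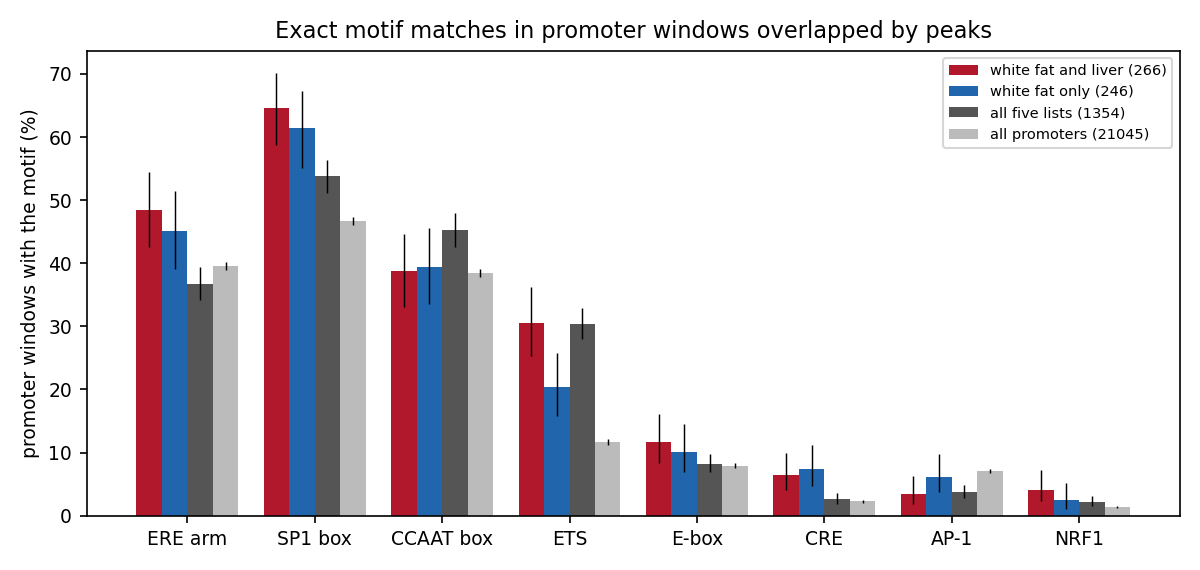
Share of 300 bp promoter windows with an exact match to each motif (%, y axis, both strands) among windows overlapped by members, by white fat only peaks and by peaks of all 5 lists, and among all protein-coding windows (number in brackets). Bars carry 95% Wilson intervals. The ETS core is in 30.5% of member windows and 11.7% of all windows.

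The members were set against 14 lists of genes, most of them metabolic or hormonal. A gene counted as having a member if a summit fell in it or no more than 25 kb off, and 1277 of 21631 protein-coding genes had a member on that count (5.90%). Of the 260 list genes 33 had one (12.7%), but these genes have a median span of 27.4 kb against 17.3 kb for all genes, and the part of span in that count was not tested. Within 5 kb the count was 19 of 260, beside 3.18% of all genes. The order of the lists changed with the distance allowed. At 25 kb fat synthesis (33.3%) and the clock (26.3%) came first, whereas at 5 kb the clock list (10.5%) was below lipolysis and cholesterol (16.7% each) and coregulators (11.1%), and at 100 kb insulin and coregulators (38.9% each) equalled fat synthesis. White fat only peaks were counted at 61.1% of fat synthesis and 63.2% of clock genes at 25 kb, beside 19.6% of all genes. Any vWAT estradiol peak was counted at 82.3% of the list genes and 61.5% of all genes. The lists were chosen with earlier results of these data known, and no list was tested.

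Among 18 genes of fatty acid and triglyceride synthesis, 6 had a member (33.3%), beside 5.90% of all genes. All 18 had some vWAT estradiol peak within 25 kb, beside 61.5% of all genes. Their median span was 39.5 kb, against 17.3 kb for all genes. The part of span and of vWAT peak number in the member count was not tested. Lpin1, a phosphatidate phosphatase of triglyceride assembly, had 2 members inside the gene. The stronger (chr12:16630058-16630663) had 6.38 in vWAT, 2.75 in scWAT and 3.82 in Liver, and the other 5.19, 4.05 and 5.12. A peak inside Acacb, the acetyl-CoA carboxylase that restrains fat oxidation, had 4.79, 3.95 and 5.54. The members inside Elovl6, a fatty acid elongase gene, and 12.1 kb from Gpam, which starts triglyceride synthesis, were weaker in vWAT (4.49 and 4.47). Peaks 9.21 kb from Mlxipl, a glucose-sensing activator of lipogenesis, and inside Elovl5, another elongase gene, had 3.53 and 3.47 in vWAT, at 92.4% and 93.9% from the top. With summits within 100 bp the count was 2. It was 4 (22.2%) at 5 kb and 7 (38.9%) at 100 kb, beside 3.18% and 14.0% of all genes.

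Of 18 genes of lipolysis and fat oxidation, 3 had a member (16.7%), beside 5.90% of all genes. The count was also 3 at 5 kb and at 100 kb, where the shares of all genes were 3.18% and 14.0%. With summits within 100 bp it was 2. All 18 had some vWAT estradiol peak within 25 kb, beside 61.5% of all genes. Their median span was 28.5 kb, against 17.3 kb for all genes. The part of span and of vWAT peak number in the member count was not tested. Pnpla2, adipose triglyceride lipase, had 2. The first lay 823 bp after a start of the gene (chr7:141455623-141456422), with 8.17 in vWAT, 5.66 in scWAT and 4.68 in Liver. The second lay 15.9 kb from the gene at the start of Tspan4 (5.56, 3.39 and 4.56). The Acadm start (chr3:153944712-153945252) had 5.69, 4.45 and 4.10. A peak inside Cpt1a, the carnitine transferase that admits fatty acids to liver mitochondria, had 4.84 in vWAT, 2.79 in scWAT and 5.64 in Liver.

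Insulin, glucose and growth hormone genes gave 4 more. A member 303 bp before the Pck1 start (chr2:173152538-173153037) had 6.38 in vWAT, 3.51 in scWAT and 3.19 in Liver, where it ranked at 93.0% from the top. Peaks 24.2 kb from Akt1, an insulin signalling kinase gene, and 20.4 kb from Slc2a4, the insulin-regulated glucose transporter, lay inside or at the start of other genes, with 5.64 and 4.53 in vWAT. These 3 were the members at 18 insulin and glucose genes, 16.7% of that list, beside 5.90% of all genes. Of 18 growth hormone and STAT5 genes Socs2, a feedback inhibitor of growth hormone signalling, had one, 22.4 kb away (chr10:95361189-95361780), with 11.01 in vWAT, 6.46 in scWAT and 3.23 in Liver. That is 5.56% of the growth hormone list, close to the 5.90% of all genes. At 5 kb, with close summits and with a −log10 q-value of 2 in every list the insulin and glucose count was 1 and the growth hormone count 0, and at 100 kb they were 7 and 2. The shares of all genes were 3.18% at 5 kb and 14.0% at 100 kb.

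Clock genes had members in 5 of 19 cases (26.3%), beside 5.90% of all genes. The count became 2 (10.5%) at 5 kb, beside 3.18% of all genes. It was 3 with the q-value limit and 1 with close summits. Within 25 kb, 18 of 19 clock genes (94.7%) had some vWAT estradiol peak, beside 61.5% of all genes. Their median span was 30.4 kb, against 17.3 kb for all genes. The part of span and of vWAT peak number in the member count was not tested. A peak inside Per2, a repressor of the clock loop (chr1:91445819-91446582), had 8.98 in vWAT, 5.75 in scWAT and 5.63 in Liver, the highest of the list in all 3 tissues. Peaks near Nr1d1, which encodes the clock repressor REV-ERBα, at and near Tef (2 peaks), near Per1 and near Dbp had 3.28 to 4.57 in vWAT. The peak near Nr1d1 lay inside Thra, a thyroid hormone receptor gene, and the one near Dbp at the start of Sphk2, a sphingosine kinase gene.

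Nuclear receptor genes had members in 5 of 38 cases (13.2%) and their coregulators in 3 of 18 (16.7%), beside 5.90% of all genes. The median spans of these lists were 50.5 and 111.4 kb, against 17.3 kb for all genes. Within 25 kb, 31 of 38 nuclear receptor genes (81.6%) and 18 of 18 coregulator genes had some vWAT estradiol peak, beside 61.5% of all genes. The part of span and of vWAT peak number in these member counts was not tested. The nuclear receptor count was 3 at 5 kb and 0 both with close summits and with the q-value limit, and the coregulator count was 7 at 100 kb and 1 with close summits. A member inside Esr1, the gene of ERα (chr10:4775666-4776310), had 6.63 in vWAT, 2.94 in scWAT and 3.53 in Liver, and it was the 1 member among 20 estrogen target genes, a count that was 4 at 100 kb and 0 both with close summits and with the q-value limit. The share of estrogen target genes was 5% at 25 kb and 20% at 100 kb, beside 5.90% and 14.0% of all genes. Thra and Nr1d1 shared a peak (4.57, 4.86 and 3.33), and peaks near Ppard and Nr2f6 had 5.08 and 3.57 in vWAT. Ppargc1b, a coactivator of mitochondrial and lipogenic programs, had a member 11.3 kb away with 10.9 in vWAT, 8.52 in scWAT and 3.33 in Liver. A member near the corepressor gene Lcor had 4.59 in vWAT, 4.12 in scWAT and 2.42 in Liver. Its Liver peak ranked at 99.3% from the top, with a −log10 q-value of 0.39. A member 286 bp from Ncoa3, a steroid receptor coactivator gene, had 4.19 in vWAT, 2.91 in scWAT and 8.84 in Liver.

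Adipocyte and cholesterol genes had members in 3 of 19 and 3 of 18 cases (15.8% and 16.7%), beside 5.90% of all genes. Fabp4, the adipocyte fatty acid binding protein, had a member 5.07 kb away (chr3:10199006-10199561) with 10.8 in vWAT, 7.34 in scWAT and 4.16 in Liver, and the members near Cebpd and Lpl were weaker (4.03 and 3.68 in vWAT). Hmgcs1, the synthase that supplies cholesterol synthesis, had one 4.96 kb away (8.14, 6.73 and 4.15), Npc1, a lysosomal cholesterol exporter gene, had 2 (5.13 and 4.05 in vWAT), and Lrp1, a lipoprotein receptor gene, had 1 (2.94). Of 18 genes of glucocorticoid and stress response, Cdkn1a, Ddit4 and Per1 had a member (16.7%). That of Cdkn1a, a cell cycle inhibitor gene, lay 22.3 kb away and had 5.81 in vWAT, 7.91 in scWAT and 4.62 in Liver. The Ddit4 start had 4.68, 3.31 and 5.45. At 5 kb the adipocyte count was 0 and the stress count 1. With close summits the adipocyte, cholesterol and stress counts were 1 each. They were 2, 2 and 4 with the q-value limit, and 5, 5 and 6 at 100 kb. The shares of all genes were 3.18% at 5 kb and 14.0% at 100 kb. Within 25 kb, 19 of 19, 15 of 18 and 18 of 18 of these genes had some vWAT estradiol peak, beside 61.5% of all genes. The part of vWAT peak number in the member counts was not tested.

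The hepatocyte, macrophage, endothelial and stromal lists had no member within 25 kb. The count was 0 of 22 hepatocyte genes, 0 of 18 macrophage and endothelial markers and 0 of 18 stromal markers, beside 5.90% of all genes. Of the same lists, 8 of 22 (36.4%), 11 of 18 (61.1%) and 15 of 18 (83.3%) genes had some vWAT estradiol peak, beside 61.5% of all genes. Their median spans were 10.3, 44.6 and 19.6 kb, against 17.3 kb for all genes. The part of span and of vWAT peak number in the member counts was not tested. With members counted up to 100 kb away, 4 of 22, 1 of 18 and 0 of 18 had one, against 14.0% of all genes. In whole tissue the cell type that gave a peak cannot be told apart.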

How the data were processed

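ERα ChIP-seq peak lists of 5 groups were used; the H3K27ac and RNA-seq samples of the series were not used here. Groups came from the sample titles. Per the submitters' processing notes, reads were handled on build mm10 with tools that include BWA 0.7.12 and HOMER. The peak caller, its background and any pooling of libraries are not stated in the labels used here. The deposited lists give for every peak an enrichment ratio, −log10 p and q-values, a summit and a score, which in at least 99.99% of peaks of a list is 10 times the −log10 p-value without decimals. Read depth is unknown, so the precision per peak is too.

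Peaks were shared at an overlap of 1 bp, and a member took the partner with the longest overlap. Spans of 21631 protein-coding genes and promoter windows came from RefSeq tables on GRCm38.p6. Motifs were exact letters on both strands. The named members were the 10 strongest in vWAT, the 10 best by worst rank, the 5 strongest in Liver and in scWAT, genes with several members, the genes of 14 lists and the members at the margin of the rule; a peak is named by the closest coding gene up to 50 kb away. Rbm42, the Strbp window and further list genes were named after their values were seen. Members and lists were chosen with earlier results of these data known. The work ran in Python 3.11.15 with pandas 2.3.3, scipy 1.17.1, numpy 2.4.6 and, for figures, matplotlib 3.10.9, and the overlap and distance code was tested on simulated data.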

Additional observations from a re-analysis of the deposited data

How the results depend on the processing

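The number of members depended on how sharing was defined. It was 421 when at least 50% of the vWAT peak had to be covered, 198 with summits within 100 bp, 42 when every list was reduced to its top 5193 peaks and 2108 without the vehicle list, and stayed within 1.5 times 743 under the other 3 alternatives. The share at gene ends was 32.3% with summits within 100 bp, 50.8% when the −log10 q-value had to reach 2 in every list, 16.7% (7 of 42) at equal list size, 64.0% without the vehicle list and 53.3% within 5 kb. The q-value limit also removed weak peaks from the BAT and vehicle lists. Its 614 peaks are therefore not a subset of the 743 members, of which 502 reached the limit in Liver. The share inside genes was 29.3% with close summits, 35.7% at equal list size, 17.1% without the vehicle list and 19.7% with 5 kb ends. At equal list size white fat only peaks were at gene ends in 4.99% (74 of 1483). The 33 list genes with a member became 19 at 5 kb, 58 at 100 kb, 10 with close summits and 20 with the q-value limit. For single lists, 26 of 56 settings left the count of genes close to its main value and 30 moved it. A single arm in place of the palindrome was in 48.5% of windows. Requiring that coverage, disregarding BAT or asking for a 500 bp margin left both position shares inside their main intervals. The cause of these shifts was not tested. No paired analysis was possible because each group has 1 peak list, and for the same reason no replicate could be left out.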

Other observations

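Some genes collected several members. Dhx32 had 3 within 25 kb, the strongest of them inside the gene (13.3 in vWAT) and shared with its neighbours Bccip and Uros, which had 2 each, and 58 genes had 2. These are not 58 separate pairs of peaks, since neighbours such as Apoc1, Apoc2, Apoc4 and Clptm1 were counted with the same pair. Some pairs, as at Adsl and Dusp23, were adjacent vWAT peaks with the same scWAT and Liver values. Both members of Sulf2, which encodes a heparan sulfate endosulfatase, lay inside the gene (11.9 and 8.61 in vWAT, 5.53 and 5.54 in Liver), as did those of Nt5c2, a cytosolic nucleotidase gene (10.6 and 3.68 in vWAT), and Rbms1, an RNA-binding protein gene (8.68 and 5.97). The start of Clptm1 (4.27 in vWAT, 3.93 in scWAT, 7.76 in Liver) and a peak 2.61 kb from Apoc2, an apolipoprotein gene (2.87, 2.90 and 4.76), were 2 members beside the apolipoprotein cluster of chromosome 7. Among gene starts, those of Coq10b, a ubiquinone-binding protein gene (10.4 in vWAT, 8.70 in scWAT, 4.11 in Liver), Hsd17b11, a lipid droplet dehydrogenase gene (8.33, 5.12 and 5.11), C3, complement component 3 (7.87, 4.15 and 4.91), Polg, the mitochondrial DNA polymerase (6.61, 4.36 and 8.72), and Creb1, a cyclic AMP response factor (4.23, 3.41 and 8.29), were members. These genes were chosen after their values were seen.

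Few members had another close by. Another member's summit lay within 10 kb for 22 of 743 (2.96%, 1.96 to 4.44), and a summit of the own class for 3.84% of 677 vWAT and Liver peaks without scWAT and 3.91% of 1433 all-list peaks. White fat only peaks, a class of 5036, had 15.4%. A vehicle summit lay within 10 kb of 119 members (16.0%, 13.6 to 18.8) and of 11.9% (11.05 to 12.8) of white fat only peaks. A vehicle peak was within 500 bp of 34 members and a BAT peak within 500 bp of 16. The X chromosome held 3 members (0.404%, 0.137 to 1.18), beside 1.05% of white fat only peaks, 1.22% of the scWAT list, 1.48% of the vWAT estradiol list and 3.19% of the Liver list. The first of these lies inside the members' interval.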
